A study of Mus musculus with 6 samples.

Results

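The genes of classical major histocompatibility complex (MHC) class I molecules and of their peptide loading were followed in the vomeronasal organ (VNO) of AP-2e null and wild-type mice. The set comprised B2m, H2-K1, H2-D1, Tap1, Tap2, Tapbp, Psmb8, Psmb9 and Nlrc5, chosen by the gene symbol that the array platform gives to a probe set. For 8 of these 9 genes a probe set named that gene alone, among 22180 genes tested in all. The only probe set annotated to H2-D1 also carries H2-Q2, so H2-D1 has no value here. VNO RNA came from 3 AP-2e null samples and 3 wild-type samples, all taken at postnatal day 17, with 1 array per sample. AP-2e is a transcription factor encoded by Tfap2e. The labels describe the samples of a genotype as biological replicates. The sources used here do not give strain, sex, the structure of the null allele or the number of animals per sample.

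Values are log2 signals, and each difference was taken as AP-2e null minus wild-type. Tfap2e, the gene of the null allele, had log2 signals of 5.97, 6.09 and 6.04 in AP-2e null replicates 1, 2 and 3, against 6.46, 6.76 and 6.92 in wild-type replicates 1, 2 and 3. The groups did not overlap, as for 7.06% of all genes, and the difference of -0.68 (SE 0.13) had an adjusted p of 0.431 in limma. Neuron markers were also read, though without another tissue beside them they cannot check the tissue label. Omp, the marker of mature sensory neurons, averaged 9.70 ± 0.22 in AP-2e null and 10.11 ± 0.32 in wild-type samples (SD, n = 3 each), and Trpc2, which encodes their transduction channel, had a difference of -0.04 (SE 0.11). Array medians lay between 4.997 and 5.079. Across probe sets, the array least correlated with the others was wild-type replicate 3 (mean r 0.973), and differences of named genes and medians of lists above 0.1 in size that moved by over 1.5 times without it are given both ways. Omp differed by -0.41, and by -0.22 without that array.

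Nucleated cells display fragments of their own proteins on class I molecules, so that T cells can inspect them. The proteasome cuts the proteins, in its immune form with the subunits encoded by Psmb8 and Psmb9, and the transporter made of the Tap1 and Tap2 products carries the peptides into the endoplasmic reticulum. There tapasin, the product of Tapbp, holds the empty heavy chain, encoded by H2-K1 or H2-D1, with its light chain beta-2 microglobulin, encoded by B2m, until a peptide fits. Nlrc5 encodes a transactivator of class I and loading genes, many of which are also induced by interferon. In the VNO, a part of the basal sensory neurons makes further class I-like heavy chains, the H2-Mv proteins, which can pair with beta-2 microglobulin as well.

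Promoter windows are shown because the null allele removes a DNA-binding factor and because the members have shared promoter elements. RefSeq windows from 250 bases before to 50 bases after the gene start (GRCm38.p6) were found for 7 of the 9 genes, with 8 windows in all since H2-K1 has 2. Each window was searched on both strands for GCCNNNGGC, the letters of an AP-2 site, for AANNGAAA, the letters of an interferon regulatory factor site, and for CCAAT, the core of the Y box of class I promoters. The 4 windows below lie at chr17:34000298-34000597 on the minus strand, chr17:35262844-35263143 on the plus strand, chr2:122147437-122147736 on the plus strand and chr17:34187306-34187605 on the plus strand, and capitals mark the matches, which do not overlap one another.
H2-K1: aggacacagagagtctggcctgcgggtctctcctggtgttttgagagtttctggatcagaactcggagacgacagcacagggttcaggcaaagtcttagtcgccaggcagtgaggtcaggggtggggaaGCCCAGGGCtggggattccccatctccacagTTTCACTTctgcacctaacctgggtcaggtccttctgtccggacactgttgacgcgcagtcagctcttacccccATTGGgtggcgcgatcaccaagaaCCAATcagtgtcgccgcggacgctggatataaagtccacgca
H2-D1: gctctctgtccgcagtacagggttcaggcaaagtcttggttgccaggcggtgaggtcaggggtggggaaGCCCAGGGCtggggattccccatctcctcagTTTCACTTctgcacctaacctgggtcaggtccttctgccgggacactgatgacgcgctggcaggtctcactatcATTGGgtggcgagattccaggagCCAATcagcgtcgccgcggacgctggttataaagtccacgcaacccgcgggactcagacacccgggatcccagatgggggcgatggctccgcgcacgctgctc
B2m: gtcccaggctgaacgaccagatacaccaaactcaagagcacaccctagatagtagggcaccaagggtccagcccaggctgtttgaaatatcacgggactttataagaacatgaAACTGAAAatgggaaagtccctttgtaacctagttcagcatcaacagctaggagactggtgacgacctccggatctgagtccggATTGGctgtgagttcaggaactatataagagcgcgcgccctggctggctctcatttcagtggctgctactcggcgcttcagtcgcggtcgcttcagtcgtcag
Tap1: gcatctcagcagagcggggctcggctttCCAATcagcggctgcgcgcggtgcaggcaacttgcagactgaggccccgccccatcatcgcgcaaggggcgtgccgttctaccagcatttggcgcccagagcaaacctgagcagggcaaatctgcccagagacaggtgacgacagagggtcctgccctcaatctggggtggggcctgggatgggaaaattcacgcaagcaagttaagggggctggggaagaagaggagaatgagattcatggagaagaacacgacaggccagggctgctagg
The AP-2 letters occurred in the windows of 2 of the 7 genes, H2-K1 and H2-D1, both times as GCCCAGGGC, and in 16.6% of all 32851 RefSeq windows. The interferon regulatory factor letters occurred in 3 of the 7 genes and in 23.9% of all windows. The match was AACTGAAA in B2m. In H2-K1 and H2-D1 it was TTTCACTT, a match on the opposite strand with another letter at a free position (N). CCAAT occurred on either strand in 6 of the 7 genes, all except Psmb8, and in 37.4% of all windows. Matches of a further pair of motifs are not in capitals. TGACG, found in the X2 box, was present in 5 of the 7 genes and in 20.8% of all windows, and TTCNNNGAA, a gamma-activated site, was present in Psmb8 alone among them and in 8.30% of all windows. The windows of Tap1 and Psmb9 run in opposite directions and share 275 bases, so the Tap1 window also shows most of the Psmb9 window. Their CCAAT and TGACG matches are the same sites, counted for both genes. The windows of H2-K1 and H2-D1 are alike over long stretches, so the counts over genes are not counts of independent sites. A match to these letters is a description of the window only.

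No class I or loading gene passed the test between the genotypes. With limma p-values adjusted by Benjamini-Hochberg over the whole array and a threshold of 0.05, 0 of the 8 members passed in either direction, where 0.225% of all genes did. At an unadjusted p under 0.05 there were also 0 of 8, in limma and in a plain one-way test, against 4.40% of all genes in limma. The values of the genotypes overlapped for all 8 members, while they did not overlap for 7.06% of all genes. Means were lower in AP-2e null samples for 6 members and higher for 2, and 50.3% of all genes had lower means there. The median difference of the 8 members was -0.04, and that of all genes tested was 0.00 to 2 decimals.

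**Figure D1:**
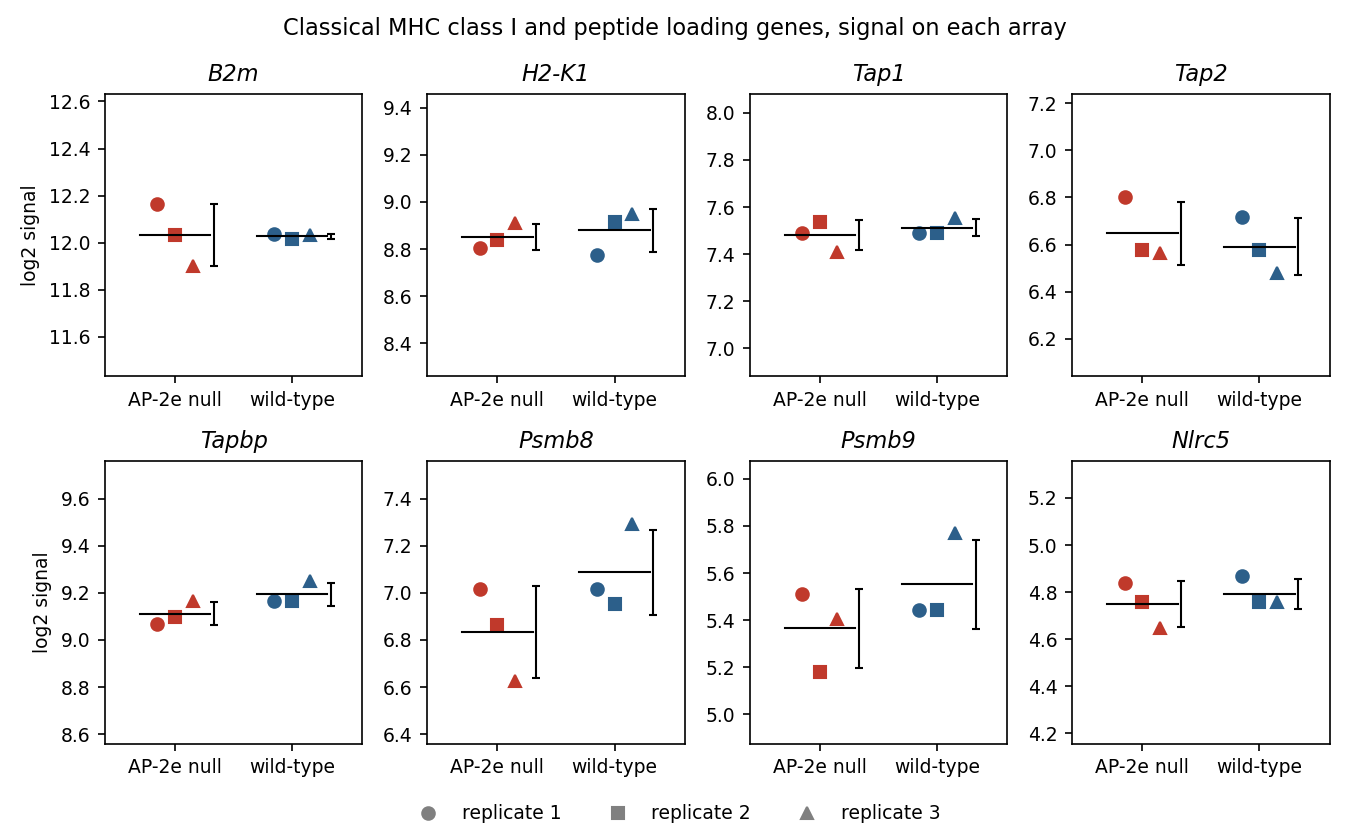
Log2 signal of the 8 measured members on each array, with AP-2e null arrays in red and wild-type arrays in blue, every panel spanning the same range of log2 units. Horizontal lines are genotype means and bars are SD (n = 3 each), and the genotypes overlap in every panel.

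B2m, the light chain gene, had log2 signals of 12.17, 12.03 and 11.90 in AP-2e null replicates 1, 2 and 3, against 12.04, 12.01 and 12.03 in wild-type replicates 1, 2 and 3. The AP-2e null arrays lay on both sides of the narrow wild-type range. The means were 12.03 ± 0.13 in AP-2e null and 12.03 ± 0.01 in wild-type samples (SD, n = 3 each), a difference of 0.01 (SE 0.08, adjusted p = 0.994 in limma). The 95% confidence interval of the difference ran from -0.19 to 0.20, which is 0.877-fold to 1.15-fold.

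H2-K1, which encodes a classical heavy chain, had log2 signals of 8.80, 8.84 and 8.91 in AP-2e null replicates 1, 2 and 3, against 8.77, 8.92 and 8.95 in wild-type replicates 1, 2 and 3. The wild-type arrays held both the lowest and the highest value. The difference was -0.03 (SE 0.07, adjusted p = 0.942 in limma), with a 95% confidence interval from -0.20 to 0.14, or 0.870-fold to 1.10-fold. H2 genes are polymorphic between mouse strains and similar to one another, so probe binding can differ with haplotype, and the strain is unknown here.

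Both transporter genes overlapped between genotypes. Tap1 had log2 signals of 7.49, 7.54 and 7.41 in AP-2e null replicates 1, 2 and 3, against 7.49, 7.49 and 7.55 in wild-type replicates 1, 2 and 3, a difference of -0.03 (SE 0.06, 95% confidence interval -0.17 to 0.11). Tap2 had log2 signals of 6.80, 6.57 and 6.56 in AP-2e null replicates 1, 2 and 3, against 6.72, 6.57 and 6.48 in wild-type replicates 1, 2 and 3, a difference of 0.06 (SE 0.10, 95% confidence interval -0.19 to 0.30). In each genotype Tap2 was highest on replicate 1. Adjusted p was 0.924 for Tap1 and 0.919 for Tap2 in limma.

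Tapbp, the tapasin gene, had log2 signals of 9.07, 9.10 and 9.16 in AP-2e null replicates 1, 2 and 3, against 9.16, 9.16 and 9.25 in wild-type replicates 1, 2 and 3. The genotypes met at a single value, 9.16, which AP-2e null replicate 3 shared with wild-type replicates 1 and 2. The difference was -0.08 (SE 0.06, adjusted p = 0.873 in limma), with a 95% confidence interval from -0.22 to 0.06. A second probe set of Tapbp had a difference of 0.03 (SE 0.06), so the 2 probe sets of this gene differed in sign.

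Psmb8 and Psmb9, the immunoproteasome subunit genes, had the largest differences of the 8 members. Psmb8 had log2 signals of 7.02, 6.86 and 6.63 in AP-2e null replicates 1, 2 and 3, against 7.02, 6.95 and 7.29 in wild-type replicates 1, 2 and 3. Its difference was -0.25 (SE 0.14, adjusted p = 0.873 in limma), with a 95% confidence interval from -0.59 to 0.09, or 0.663-fold to 1.06-fold. Psmb9 had log2 signals of 5.51, 5.18 and 5.41 in AP-2e null replicates 1, 2 and 3, against 5.44, 5.44 and 5.77 in wild-type replicates 1, 2 and 3. Its difference was -0.19 (SE 0.13, adjusted p = 0.873 in limma), with a 95% confidence interval from -0.51 to 0.14, or 0.701-fold to 1.10-fold. For both genes wild-type replicate 3 was the highest array. Without it the differences were -0.15 for Psmb8 and -0.08 for Psmb9, and without AP-2e null replicate 3 that of Psmb8 was -0.15. Without AP-2e null replicate 2 the difference of Psmb9 was -0.09.

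Nlrc5, the transactivator gene, had log2 signals of 4.84, 4.76 and 4.65 in AP-2e null replicates 1, 2 and 3, against 4.87, 4.76 and 4.76 in wild-type replicates 1, 2 and 3. Its difference was -0.05 (SE 0.07, adjusted p = 0.909 in limma), with a 95% confidence interval from -0.22 to 0.13. No member had a mean under the lower quartile of all probe sets, 3.62, in either genotype. Each Nlrc5 value lay under the lowest array median, 4.997, so this is a dim probe set.

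The spread between samples of a genotype was small for most members. The SD within genotypes lay under the median of all genes, 0.135, for 6 of 8, and it was 0.188 for Psmb8 and 0.178 for Psmb9. Of the 8 members, 7 had at least 1 value that stood unchanged, to the last deposited digit, on more than 1 array, and 53.6% of all genes tested had such repeats. Nlrc5, for example, read 4.76 on AP-2e null replicate 2 and on wild-type replicates 2 and 3. Values repeated within a genotype, as for Tap1, Tapbp, Psmb9 and Nlrc5, narrow the spread that limma sees. The repeats of B2m, Tap2 and Psmb8 were between genotypes only. The origin of the repeats was not tested. Where a value repeats across genotypes, as for Nlrc5 and Tapbp, it also makes the genotypes overlap. The overlap of Tapbp rested on such a value alone.

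H2-Mv genes on the same arrays had lower signal in AP-2e null samples. The mean over the 9 H2-Mv genes was 5.27, 5.18 and 5.08 in AP-2e null replicates 1, 2 and 3, against 6.19, 6.44 and 6.29 in wild-type replicates 1, 2 and 3. H2-M1 alone of the 9 fell past the threshold (difference -2.82, SE 0.26, adjusted p = 0.0271 in limma), a call it lost when any single array was left out. All 9 had an unadjusted p under 0.05, against 4.40% of all genes, and their differences ran from -2.82 to -0.592. The confidence interval of 7 of the 8 class I and loading genes lay wholly above this range of estimates, and that of Psmb8 reached -0.593. The H2-Mv estimates have intervals of their own. That of H2-M10.4 ran from -1.08 to -0.10 and overlapped the interval of each of the 8 class I and loading genes. In whole tissue, fewer cells of a type and less RNA per cell cannot be told apart.

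**Figure D2:**
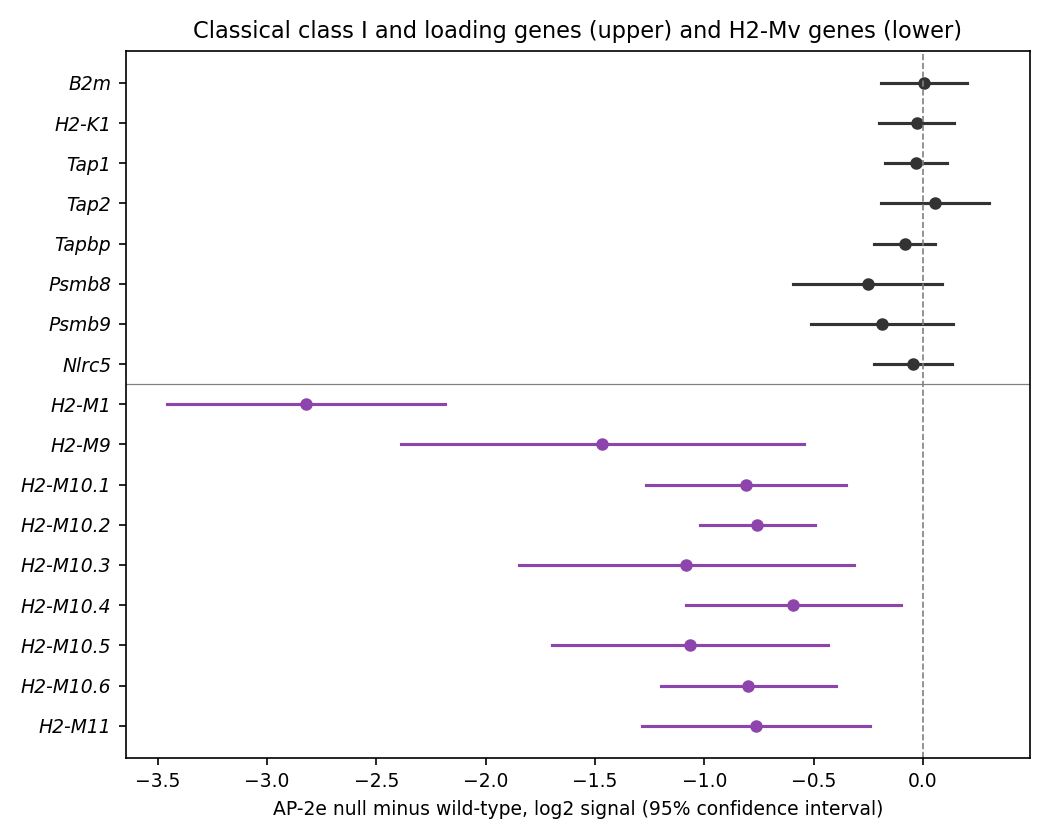
Difference in log2 signal, AP-2e null minus wild-type, with its 95% confidence interval from limma, for the 8 class I and loading genes above the line and the 9 H2-Mv genes below it. The upper intervals all include 0, whereas the lower intervals all lie left of it.

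Genes next to the members in the pathway had no call either. Of 8 further processing and loading genes none passed in limma, also not at an unadjusted p under 0.05 (0 of 8), and the median difference was -0.08. Psme2, a subunit of the proteasome activator that interferon induces, had the largest of these at -0.34 (SE 0.17), and -0.17 without AP-2e null replicate 2. Tapbpl, a tapasin-like peptide editor, had -0.14, and -0.04 without wild-type replicate 3. Calr, a chaperone of the loading complex, had 0.08, with the lowest AP-2e null value, 12.05, above the highest wild-type value, 12.03. Genotypes did not overlap for 7.06% of all genes. The 9 genes of the constitutive proteasome core all had lower means in AP-2e null samples, where 50.3% of all genes did. Their differences ran from -0.18 for Psmb1 to -0.01, with a median of -0.12 and 0 at an unadjusted p under 0.05. Without wild-type replicate 3 the median was -0.06 and Psmb1 had -0.05.

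Among 12 measured other class I heavy chains the test called 0, and 0 reached an unadjusted p under 0.05, with a median difference of -0.02. Fcgrt, the heavy chain of the neonatal Fc receptor, differed by 0.23 (SE 0.11) and H2-Q1 by -0.19 (SE 0.12). Without wild-type replicate 1 these were 0.15 and -0.12, without wild-type replicate 2 Fcgrt had 0.35, and without AP-2e null replicate 3 H2-Q1 had -0.10. The median was -0.04 without wild-type replicate 3. H2-T10 had the largest difference, 0.54 (SE 0.41), and its AP-2e null values lay between 5.35 and 5.47 while its wild-type values spread from 3.97, on replicate 3, to 5.57. Without wild-type replicate 3 its difference was 0.08, and without wild-type replicate 2 it was 0.88. In the fit without wild-type replicate 3 the largest of the list was H2-T23 at 0.34. H2-T23 had -0.02 with all arrays and -0.35 without wild-type replicate 2. Of 5 measured class II genes and 10 other genes of the MHC region the test called 0, and 0 reached an unadjusted p under 0.05, with median differences of -0.12 and 0.04. H2-Aa, a class II alpha chain gene, differed by -0.26 (SE 0.16), and Wdr46, a gene of ribosome assembly that lies in the region, by 0.28 (SE 0.16). Without wild-type replicate 3 these were -0.11 and 0.11, and the median of the class II genes was -0.01.

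Of 13 measured regulators of class I the test called 0, and 1 reached an unadjusted p under 0.05, against 4.40% of all genes. That gene was Nfya, a subunit of the factor that binds the Y box. It had log2 signals of 8.84, 8.83 and 8.72 in AP-2e null replicates 1, 2 and 3, against 8.52, 8.62 and 8.46 in wild-type replicates 1, 2 and 3, a difference of 0.26 (SE 0.07, adjusted p = 0.873 in limma). The groups did not overlap, as for 7.06% of all genes, and Nfya did not pass over all genes. Of 7 interferon receptor and kinase genes the test called 0, with 0 at an unadjusted p under 0.05 (median 0.03), with Jak1, a kinase of interferon receptors, at -0.25 (SE 0.12), and at -0.13 without wild-type replicate 3.

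**Figure D3:**
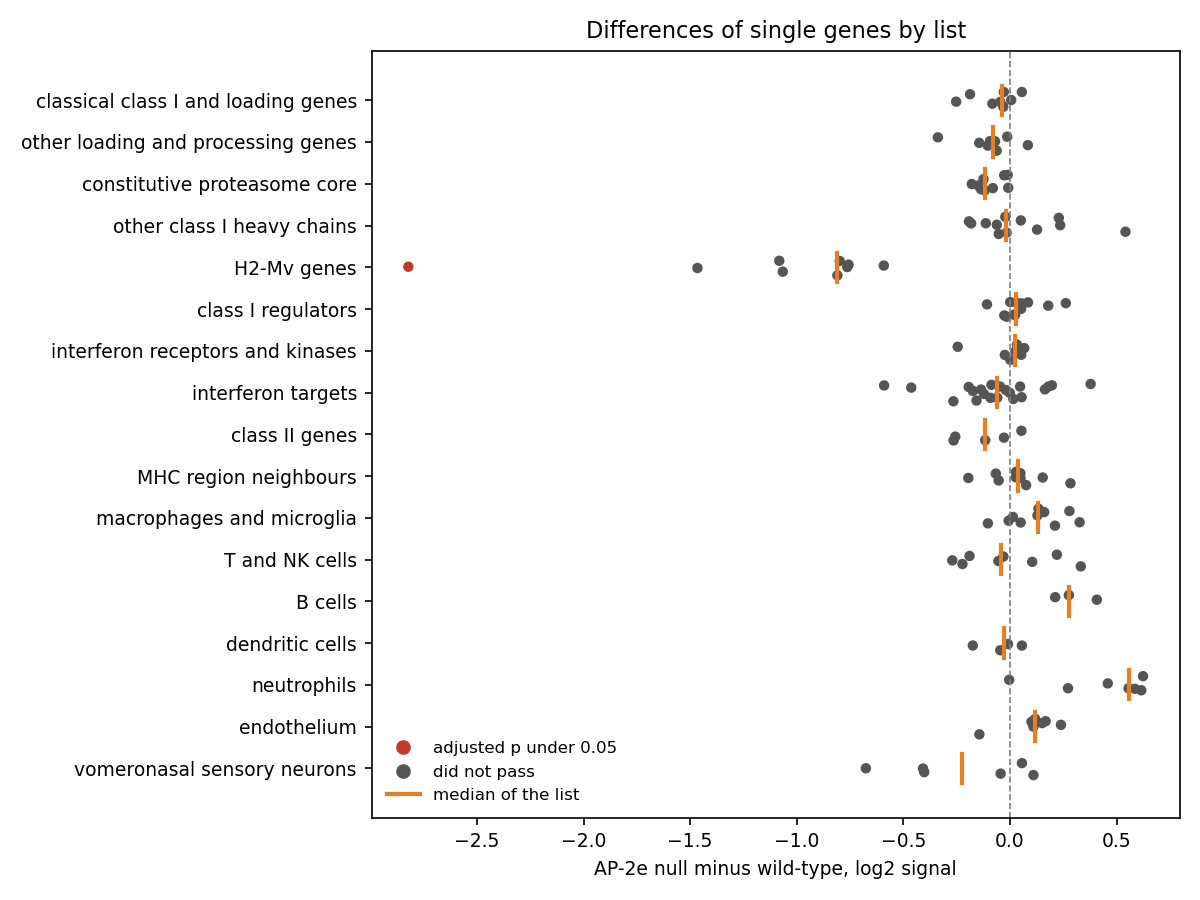
Difference in log2 signal, AP-2e null minus wild-type, of each measured gene (points, shifted vertically at random) in the class I set, the pathway lists and the cell type lists, with the median of each list in orange. H2-M1 is the only gene drawn in red, at -2.82, and the class I and loading genes lie between -0.25 and 0.06.

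Most interferon targets were high on 1 array, the one on which Psmb8 and Psmb9 were highest. Of 21 measured targets 15 had their highest value on wild-type replicate 3, where 5101 of all 22180 genes did. Bst2, an antiviral membrane protein, stood at 8.51 on that array and between 5.91 and 6.43 on the other 5. Irgm2, an interferon-induced GTPase, stood at 7.17 there and between 6.24 and 6.45 on the others, and Oasl2 at 8.51 against 7.54 to 7.93. Cxcl10 went the other way, at 4.35 there against 4.50 to 4.93. The mean deviation of the 21 genes from their own means was 0.35 on wild-type replicate 3, against -0.13 to 0.04 on the remaining 5 arrays. Between genotypes limma called 0 targets, and 1 reached an unadjusted p under 0.05, against 4.40% of all genes. That target was Usp18, a negative regulator of interferon signalling, at -0.46 (SE 0.15). The median difference of the targets was -0.06. Without wild-type replicate 3 the median was 0.07 and Usp18 had -0.33.

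Of the 8 class I and loading genes, 5 had their highest value on wild-type replicate 3: H2-K1, Tap1, Tapbp, Psmb8 and Psmb9. Psmb8 stood 0.31 above the mean of wild-type replicates 1 and 2 there and Psmb9 0.33, while the same gap was 0.01 for B2m and -0.17 for Tap2. On AP-2e null replicate 3, 4 members were at their lowest, where 15.8% of all genes were. The mean deviation of the members was 0.09 on wild-type replicate 3 and -0.09 on AP-2e null replicate 3. The part of the interferon targets in the values of the class I genes was not tested.

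**Figure D4:**
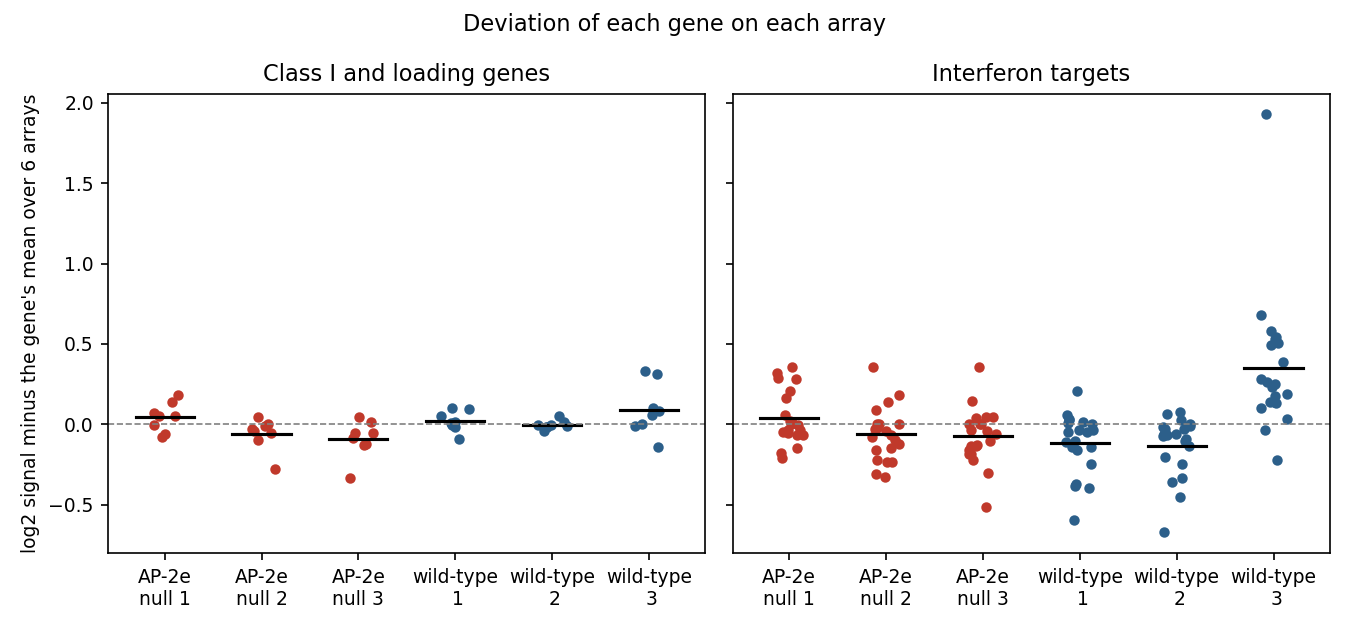
Log2 signal of each gene minus its own mean over the 6 arrays, for the 8 class I and loading genes (left) and the 21 interferon targets (right), with AP-2e null arrays in red and wild-type arrays in blue. Horizontal lines are list means, and on wild-type replicate 3 that of the interferon targets is 0.35 against 0.09 for the class I genes.

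Markers of immune and vessel cells, which carry class I molecules themselves, were measured on the same arrays, and 0 of them passed. Of 10 macrophage and microglia genes, 8 were higher on average in AP-2e null samples, as were 11034 of all 22180 genes. In this list 2 had an unadjusted p under 0.05, against 4.40% of all genes, Mrc1 at 0.21 and Ptprc at 0.28. Ptprc had 0.18 without wild-type replicate 3. The list mean lay between 7.44 and 7.52 in AP-2e null and between 7.30 and 7.42 in wild-type samples. Csf1r, the growth factor receptor of macrophages, averaged 9.22 in AP-2e null and 9.06 in wild-type samples. Of 8 T and NK cell genes 5 were lower and 3 higher on average in AP-2e null samples. Among them 1 had an unadjusted p under 0.05, against 4.40% of all genes, Cd4 at 0.33, which macrophages can also make. Gzma, a granule enzyme of cytotoxic cells, had -0.27, with groups that did not overlap, as for 7.06% of all genes. The T cell receptor genes differed in sign, with Cd3d and Cd3g at -0.22 and -0.19 and Cd3e at 0.22 (SE 0.23). Without wild-type replicate 3 Cd3e had 0.04. The list mean lay between 4.63 and 4.79 in AP-2e null and between 4.64 and 4.85 in wild-type samples. Cd8a, which marks cytotoxic T cells, read 3.58 on 5 of the 6 arrays, under the lower quartile of all probe sets, and 3.89 on AP-2e null replicate 3.

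Of 3 measured B cell genes, 4 dendritic cell genes, 7 neutrophil genes and 7 endothelial genes, 0 had an unadjusted p under 0.05. The B cell list mean lay between 6.08 and 6.48 in AP-2e null and between 5.56 and 6.12 in wild-type samples, led by Cd79a at 0.41 (SE 0.22), which was 0.27 without AP-2e null replicate 1 and 0.21 without wild-type replicate 2. The medians of the B cell and endothelial lists were 0.41 and 0.21 without wild-type replicate 3, against 0.28 and 0.12 with all arrays. The neutrophil list mean lay between 8.41 and 8.71 in AP-2e null and between 7.66 and 8.59 in wild-type samples, with the lowest value, 7.66, on wild-type replicate 3. The median difference of the neutrophil genes was 0.56, and 0.01 without that array. Dendritic cell list means lay between 5.32 and 5.55 in AP-2e null and between 5.45 and 5.51 in wild-type samples, with Zbtb46 at -0.05. Endothelial list means lay between 7.58 and 7.73 in AP-2e null and between 7.46 and 7.68 in wild-type samples, with Kdr at 0.24, and at 0.14 without wild-type replicate 1. Of the 6 neuron genes 2 had an unadjusted p under 0.05, against 4.40% of all genes, Gnao1 at -0.68 and Ano2 at -0.40. Means were lower in AP-2e null samples for 4 of the 6 and higher for 2, Gnai2 at 0.11 and Ano1 at 0.06. The list mean of the neuron genes lay between 9.17 and 9.26 in AP-2e null and between 9.35 and 9.58 in wild-type samples. The median of the neuron genes was -0.11 without wild-type replicate 3, against -0.22 with all arrays. The part of these cell types in the class I values was not tested.

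The mean profile of the 8 members over the 6 arrays was set beside those of 15579 other named genes that varied at least as much. The most similar by root mean square difference of centred log2 values were Vps29 (0.0137), Rbm8a (0.0161), Wfs1 (0.0178), Stx11 (0.0201) and Zcchc9 (0.0219). Genes chosen for likeness to this profile have small differences by the choice itself, and those of these 5 lay between -0.10 and -0.05. The profile itself had an SD of 0.067 over the arrays, so the likeness concerns small deviations.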

How the data were processed

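VNO RNA of 3 AP-2e null and 3 wild-type samples was measured on Affymetrix whole-transcript arrays. The deposited table holds log2 signals that the authors made with RMA and the Transcriptome Analysis Console, per the submitters' processing notes, for which the sources used here give no version, setting or genome build. RMA corrects background, equalises arrays by quantiles and summarises probes. Of 41345 probe sets, 23521 named 1 gene, 1814 several and 16010 none, and symbols were checked by Entrez identifier against RefSeq (GRCm38.p6, 23328 matched, 0 changed). The probe set with the highest mean was kept for each of 22180 genes, with no filter on dim genes. The sample titles gave genotype and replicate number.

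All genes were fitted together with limma 3.58.1 (lmFit, eBayes, 2-sided, no covariate) in R 4.3.3, and p-values were adjusted over all of them by Benjamini-Hochberg with a threshold of 0.05. Confidence intervals (95%) come from this fit, which shares the spread across genes, and p-values measure spread between samples, of which 3 per genotype limit the precision. The script was tested on simulated data. The members and the 16 other lists were chosen with earlier results of these data known, and no list was tested as a set. Named genes were all members, Tfap2e, H2-M1, up to 4 genes with the smallest p and the highest marker of a list, and the 5 genes closest in profile. H2-T10, Bst2, Irgm2, Oasl2, Cxcl10, Cd8a, Cd3e, Trpc2, Ano1, Psmb1, H2-T23 and H2-M10.4 were described after their values were seen. Other settings were trend and robust moderation, the mean of probe sets, every probe set by itself, no dim genes, median centring, repeated quantile normalization, array weights, a plain one-way test, a block for the replicate number, and fits without each single array. Figures used matplotlib 3.10.9 under Python 3.11.15.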

Additional observations from a re-analysis of the deposited data

How the results depend on the processing

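In each of the 15 alternatives 0 of the 8 class I and loading genes were called, and 0 reached an unadjusted p under 0.05. The median difference of the members lay between -0.07 and -0.03 over these settings. Trend and robust moderation, no dim genes, the plain test and the replicate block left every difference as in the main fit. So did every probe set by itself, which was read for the brightest probe set of each gene only. These settings could not change a sign. Over the remaining settings Psmb8, Psmb9 and Tapbp kept their negative sign, and the other 5 genes changed sign somewhere. The second, dimmer probe set of Tapbp had a difference of 0.03. B2m changed sign with median centring (-0.0295), repeated quantile normalization (-0.0316) and array weights (-0.0051), H2-K1 with array weights (0.0071) and Tap2 with array weights (-0.0072). With single arrays left out B2m lay between -0.0606 and 0.0717, H2-K1 between -0.0817 and 0.0056, Tap1 between -0.0604 and 0.0032, Tap2 between -0.0219 and 0.12, Nlrc5 between -0.0916 and 0.0052, Psmb8 between -0.34 and -0.15, Psmb9 between -0.26 and -0.08 and Tapbp between -0.11 and -0.05. The number of genes of the other lists past the threshold was 1 (H2-M1), and it was 0 in the plain one-way test and with the replicate block and between 0 and 1 with single arrays left out, where H2-M10.3 passed without wild-type replicate 3. Same-numbered samples of the genotypes had correlations of their deviations of 0.04, 0.11 and 0.02 across genes, so the numbers were not taken as pairs, and AP-2e null replicates 1 and 3 correlated better with another number. The replicate block left 22 of 22180 genes called, against 50 without it, and moved no call of a member.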
